A study of Ovis aries with 6 samples.

Results

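The antigen presentation machinery of cultured sheep (Ovis aries) cells was followed through 42 probes of a single-colour expression array that carried 15008 gene probes. A probe was taken where its annotation named PSMB9, TAP1, TAP2, CD74 or beta-2-microglobulin, or where its description contained MHC class or histocompatibility. The 42 comprised 26 probes for class I heavy chains, 8 for class II chains, 3 for beta-2-microglobulin, 1 each for PSMB9, TAP1, TAP2 and the invariant chain CD74, and 1 for HM13, a signal peptide peptidase listed as a minor histocompatibility antigen. The alias "TAP1 protein" also matched a probe for TRPC4AP, an unrelated protein, which was set aside. A further 4 class II probes whose descriptions lack the searched words (1 DRA, 1 DRB1 and 2 DQA2) are given beside the 8.

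Corneal epithelial cells were compared with skin epidermal stem cells, with 3 samples of each and 1 array per sample. No treatment distinguished the cells, both kinds were harvested from adherent culture with trypsin, and the series' design text speaks of 3 lines of each kind. Nothing says whether the lines came from separate animals, and each p-value reflects the spread of these 6 samples alone, which could be technical. All values are log2 spot intensities relative to the 75th percentile of their array, changes are corneal minus epidermal on the log2 scale, and levels of different probes are not compared.

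Nucleated cells show peptides from their own proteins on MHC class I molecules, which pair a polymorphic heavy chain with beta-2-microglobulin. The peptides are cut by the proteasome, which has interferon-inducible catalytic subunits, among them PSMB8 and PSMB9. The cut peptides are carried into the endoplasmic reticulum by the transporter formed from TAP1 and TAP2. MHC class II molecules pair an alpha with a beta chain (DR, DQ), load peptides from endosomes with the help of CD74 and DM, and are typical of professional antigen presenting cells. Epithelial cells express class II mainly after exposure to interferon gamma. Sheep carry several class I loci with many alleles, so heavy chain transcripts resemble one another.

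That resemblance is visible in the probes themselves, which are 60 bases long. The sequences below were read from the arrays' annotation and are shown because probes this alike need not tell heavy chain genes apart. The first set comes from 3 entries for class I mRNAs and lies at bases 1047, 982 and 979 of these entries; capitals mark the run of 17 bases that all 3 share.
OVAR: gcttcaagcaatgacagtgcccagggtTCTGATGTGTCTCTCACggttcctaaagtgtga
U03092: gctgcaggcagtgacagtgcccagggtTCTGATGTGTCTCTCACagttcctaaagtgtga
U03093: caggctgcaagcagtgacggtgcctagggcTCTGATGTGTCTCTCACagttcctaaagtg

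A second set lies further 5′, at bases 398, 448 and 395, and shares a run of 21 bases, in capitals. The fourth sequence, EF489515, has a similar start but its longest run shared with EF489513 is 13 bases, in capitals.
EF489531: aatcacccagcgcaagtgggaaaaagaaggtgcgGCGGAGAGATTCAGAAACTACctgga
U03092: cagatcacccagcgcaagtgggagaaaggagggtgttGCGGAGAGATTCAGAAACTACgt
EF489513: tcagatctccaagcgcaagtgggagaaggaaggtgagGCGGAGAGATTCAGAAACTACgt
EF489515: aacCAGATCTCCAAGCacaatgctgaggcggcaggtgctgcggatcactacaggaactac

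Among class II chains, a DQA1 probe (base 577 of its entry) and a DQA2 probe (M93431, base 560) differ at 4 of 60 bases, in capitals, and their readings are therefore not independent. Probes for the DM beta chain (JF806323) and for a DRB1 allele (DQ659127) carry other class II results and are printed without marks.
DQA1: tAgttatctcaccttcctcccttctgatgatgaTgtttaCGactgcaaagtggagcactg
DQA2: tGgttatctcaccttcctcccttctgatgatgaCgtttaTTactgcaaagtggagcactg
JF806323: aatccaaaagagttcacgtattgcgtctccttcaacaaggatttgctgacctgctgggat
DQ659127: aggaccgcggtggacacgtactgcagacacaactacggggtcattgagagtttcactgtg

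Gene spots well above background made up 74.1% ± 1.56 on corneal arrays and 80.2% ± 2.36 on epidermal arrays (SD, n = 3 each). An exact permutation test, two-sided, gave p = 0.1, which is its minimum for this design. Saturated spots were absent. The 6 arrays lay on 1 slide and were read in 1 scan, with the corneal arrays in slide row 2 and the epidermal arrays in slide row 1, so a row effect and a cell type effect cannot be told apart. Of 9 markers of keratinocytes and corneal epithelium, 5 were named on the array and 2 tested. Here and below, a list gene that was not named may still be on the array, since 13662 of 15008 probes were given no gene symbol. PAX6, a transcription factor of eye development, was above background on all 6 arrays and higher in corneal cells (0.30 ± 0.07; adjusted p = 0.0132), though not without scaling (adjusted p = 0.236), and the keratin KRT15, above background on 1 corneal and 3 epidermal arrays, did not pass. KRT14 was above background on 0 corneal and 2 epidermal arrays, and KRT19 and TP63 on none. Of 6 tested mesenchymal markers, 3 were lower and 0 higher in corneal cells. All 6 were above background on all 6 arrays. VIM read 8.62, 8.59 and 8.60 in corneal cells and 8.51, 8.72 and 8.74 in epidermal cells. The cell names used here are those of the sample labels, and the identity of the cells was not tested. The collagen COL3A1 read 2.34, 2.29 and 2.30 in corneal cells against 6.75, 6.87 and 6.85 in epidermal cells, a change of −4.51 ± 0.04 (adjusted p = 1.46e-07). The matrix proteoglycan LUM changed by −0.40 ± 0.04 (adjusted p = 0.000315) and the collagen COL1A1 by −0.24 ± 0.08 (adjusted p = 0.0497), a call lost under 10 alternatives, while the filament VIM gave −0.05 ± 0.07 (adjusted p = 0.511). The proteoglycan DCN gave 0.07 (adjusted p = 0.803) on its brightest probe and −0.44 (adjusted p = 9.26e-05) on another. The 3 called mesenchymal markers moved in the same direction as the class I results below, and their part in them was not tested. Across the array, 59.8% of the 11740 probes tested passed limma at an adjusted p under 0.05, 26.4% as higher and 33.4% as lower in corneal cells, with a median change of −0.05. Counts of members are to be read beside these shares.

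Of the 42 probes, 38 were well above background on at least 3 arrays and were tested. Corneal cells had lower class I heavy chain, PSMB9, TAP1 and TAP2 signals than epidermal cells, while 2 of the 3 beta-2-microglobulin probes and CD74 did not pass the test. The largest change among these was that of PSMB9, whose intensity in corneal cells was 2.36-fold lower. Class II transcripts were near or below background for most chains, and the 2 class II probes above background on all 6 arrays, DQA1 and DM beta, were higher in corneal cells. The array measures RNA of whole cultures, so fewer cells that carry a transcript and less of it per cell cannot be told apart.

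The 3 members that make and carry peptides for class I were all lower in corneal cells. PSMB9 is a catalytic subunit that replaces a constitutive one in the immunoproteasome. It stood at −0.32, −0.32 and −0.30 in corneal cells and at 0.97, 0.94 and 0.85 in epidermal cells. The groups lay far apart compared with the spread within either of them, and the change was −1.24 ± 0.04 (SE; adjusted p = 5.24e-06). It stayed between −1.40 and −1.11 over 17 alternative settings.

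TAP1, a subunit of the peptide pump, read −3.34, −3.76 and −3.44 in corneal cells against −2.98, −2.81 and −2.83 in epidermal cells. TAP2, its partner, read 3.53, 3.52 and 3.44 in corneal cells against 4.05, 3.91 and 3.94 in epidermal cells. For neither gene did the groups overlap. The change was −0.64 ± 0.12 for TAP1 (adjusted p = 0.00569) and −0.47 ± 0.05 for TAP2 (adjusted p = 0.000512), and that of TAP1 ranged from −0.80 without scaling to −0.34 with normexp background correction, still past the threshold.

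The list of genes that supply and load class I held 19 names, 9 of which were named on the array and tested, and 7 of these were lower, 0 higher. PSMB8, the neighbouring immunoproteasome subunit, changed by −0.39 ± 0.05 (adjusted p = 0.00117). Calreticulin (CALR), a chaperone of the peptide-loading complex, fell by 0.66 on the log2 scale (SE 0.04; adjusted p = 3.73e-05). HSPA5, the general chaperone of the endoplasmic reticulum, changed by −0.32 ± 0.04, and PSME2, a subunit of the proteasome activator PA28, by −0.12 ± 0.03, a call lost with median centring. Calnexin (CANX), which holds new heavy chains, gave 0.03 ± 0.03 (adjusted p = 0.366) on its brightest probe and 0.18 (adjusted p = 0.0102) on another. In the sheep RefSeq gene order, used here for neighbours alone, TAP2, PSMB8, TAP1 and PSMB9 follow one another with 0 annotated genes between them, and all 4 were lower in corneal cells. Of 4 tested subunits of the constitutive proteasome, which serves general protein turnover, 2 were lower (PSMA7 at −0.30 ± 0.06, PSMB7 at −0.17 ± 0.04) and 1 was higher (PSMB6, the subunit that PSMB9 replaces, at 0.26 ± 0.03). PSMB6 did not pass without scaling (0.09, adjusted p = 0.311).

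Class I heavy chains were lower in corneal cells on nearly all probes. Of the 26 probes, 24 were well above background on all 6 arrays. Of these, 21 were lower, 1 was higher and 2 did not pass, with a median change of −0.52, against −0.05 over all probes tested. On the same 21 probes every corneal array read below every epidermal array, which was the case for 37.7% of all probes tested. These probes are not independent readings of 21 genes, since 16 of the 26 fell into 4 sets linked by shared runs of at least 16 bases, a minimum chosen after the sequences were seen.

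The set linked to OVAR, U03092 and U03093 above held 6 probes, with changes between −0.77 and −0.48. Within it the probes at larger changes were AM181175, at 3.81, 3.75 and 3.75 in corneal cells against 4.63, 4.48 and 4.51 in epidermal cells, and OVAR at base 1047, at 3.95, 4.0 and 3.99 in corneal cells against 4.72, 4.69 and 4.72 in epidermal cells. U03092 at base 982 read 3.90, 3.90 and 3.91 in corneal cells against 4.64, 4.57 and 4.59 in epidermal cells. These 3 probes changed by −0.77 ± 0.05, −0.73 ± 0.03 and −0.69 ± 0.03.

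The other 3 probes of the set changed less. U03093 read 4.07, 4.06 and 4.07 in corneal cells against 4.56, 4.52 and 4.54 in epidermal cells (−0.48 ± 0.03). AJ874675 at base 1063 read 4.08, 3.98 and 4.02 in corneal cells against 4.53, 4.55 and 4.51 in epidermal cells (−0.51 ± 0.04), and it shares a run of 53 bases with the next probe. AJ874681 read 4.23, 4.18 and 4.21 in corneal cells against 4.70, 4.78 and 4.71 in epidermal cells (−0.52 ± 0.04). Taken on the same array, where scaling cancels, the OVAR value at base 1047 minus the U03093 value was −0.12, −0.06 and −0.07 in corneal cells and 0.16, 0.17 and 0.18 in epidermal cells. The change of OVAR minus that of U03093, with which it shares a run of 17 bases, was thus −0.25. The pair was chosen for this difference, which is given as a description with no test.

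A set of 5 probes for class I genes that the annotation describes by their 3′ end or complete coding sequence changed by −0.64 to −0.52. M34676 read 6.72, 6.69 and 6.66 in corneal cells against 7.30, 7.38 and 7.32 in epidermal cells. M34674 read 4.86, 4.83 and 4.83 in corneal cells against 5.44, 5.42 and 5.44 in epidermal cells. The changes were −0.64 ± 0.04 (adjusted p = 4.34e-05) and −0.60 ± 0.03 (adjusted p = 1.87e-05). M34675 read 6.20, 6.12 and 6.15 in corneal cells against 6.69, 6.71 and 6.79 in epidermal cells. M34672 read 5.44, 5.37 and 5.38 in corneal cells against 5.93, 5.97 and 5.95 in epidermal cells. M34673 read 4.35, 4.29 and 4.31 in corneal cells against 4.90, 4.83 and 4.78 in epidermal cells. In all 5 every corneal array read below every epidermal array.

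The further 5′ set moved by similar amounts. EF489531 read −1.47, −1.42 and −1.45 in corneal cells against −1.07, −0.85 and −0.96 in epidermal cells (−0.49 ± 0.06). U03092 at base 448 read 1.38, 1.30 and 1.33 in corneal cells against 1.69, 1.97 and 1.73 in epidermal cells (−0.46 ± 0.08). EF489513 read −1.01, −1.07 and −1.0 in corneal cells against −0.64, −0.44 and −0.60 in epidermal cells (−0.47 ± 0.06). EF489515, the diverged sequence printed with them, had a smaller change. It read −0.77, −0.84 and −0.78 in corneal cells against −0.59, −0.52 and −0.61 in epidermal cells, a change of −0.23 ± 0.04 (adjusted p = 0.00382). On the same array, EF489515 minus EF489513 was 0.23, 0.23 and 0.22 in corneal cells and 0.05, −0.08 and −0.01 in epidermal cells, again a description of a pair chosen after its values were seen.

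Among the remaining probes made from sheep class I entries, AJ874678 and AY188824 share a run of 17 bases. AJ874678 read 2.48, 2.47 and 2.50 in corneal cells against 3.05, 2.97 and 3.06 in epidermal cells. AY188824 read 2.96, 2.94 and 2.99 in corneal cells against 3.56, 3.47 and 3.45 in epidermal cells. Their changes were −0.55 ± 0.04 and −0.53 ± 0.04. Of the probes that share no such run with any other, AJ874684 read 1.19, 1.15 and 1.21 in corneal cells against 1.72, 1.78 and 1.71 in epidermal cells (−0.56 ± 0.03). AJ874675 at base 395 read 0.35, 0.30 and 0.39 in corneal cells against 0.83, 0.89 and 0.78 in epidermal cells (−0.49 ± 0.04). OVAR at base 983 read 4.16, 4.14 and 4.19 in corneal cells against 4.98, 4.85 and 4.92 in epidermal cells (−0.75 ± 0.04), which is near the change of the other OVAR probe.

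EF489523 was the exception among them. It read −3.65, −3.58 and −3.45 in corneal cells and −3.64, −3.58 and −3.69 in epidermal cells, with overlapping groups and a change of 0.08 ± 0.06 (adjusted p = 0.337).

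Another 5 probes came from assembled transcripts that the annotation names class I by protein similarity, and they did not move together. TC79812, similar to a cattle class I antigen, read −1.84, −1.83 and −1.80 in corneal cells against −1.52, −1.51 and −1.64 in epidermal cells (−0.27 ± 0.04; adjusted p = 0.00293). TC73647, similar to a sheep class I antigen, read 0.85, 0.76 and 0.79 in corneal cells against 0.92, 0.85 and 0.82 in epidermal cells, and did not pass (−0.07 ± 0.04; adjusted p = 0.219). TC61505, similar to part of a pig class I antigen, was the single higher probe. It read −5.95, −5.82 and −5.83 in corneal cells against −6.49, −6.53 and −6.69 in epidermal cells, and rose by 0.70 ± 0.07 (adjusted p = 0.000403), or by 0.10 with normexp correction. TC66789 passed the background filter through its epidermal arrays alone, at −6.57, −7.33 and −7.19 in corneal cells against −6.16, −6.47 and −6.13 in epidermal cells. Its call was lost under 8 of the alternatives, and its fitted change is not given, since the filter fixed its direction. In the main processing its corneal signal was lower by at least 1.04-fold. A bound of this kind sets the mean of the brighter group against a reference for each dim array. The reference is the lowest signal that counts as well above background, or the probe's own reading where that is higher. Such a bound carries no estimate of error and was computed for the main processing only. TC75272, similar to a non-classical cattle class I antigen, was well above background on 0 corneal arrays and 1 epidermal array and was not tested.

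Beta-2-microglobulin, the light chain that every class I heavy chain needs at the cell surface, did not follow the heavy chains. The probe at base 324 read 5.60, 5.60 and 5.58 in corneal cells and 5.57, 5.63 and 5.62 in epidermal cells. Its neighbour at base 325, which shares 59 of its 60 bases, read 5.59, 5.55 and 5.53 in corneal cells and 5.60, 5.56 and 5.53 in epidermal cells. Both had overlapping groups and changes of −0.01 ± 0.03, with 95% intervals from −0.09 to 0.06 and from −0.09 to 0.07.

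The third light chain probe, TC70284, lies at base 1386 of an assembled transcript and read 3.44, 3.41 and 3.39 in corneal cells against 3.21, 3.17 and 3.19 in epidermal cells. It rose by 0.23 ± 0.03 (adjusted p = 0.00113), a call that ended without scaling (0.06, adjusted p = 0.541). The direction of the base 324 probe depended on the processing: it was higher with normexp correction (0.07, adjusted p = 0.0307) and lower without scaling (−0.18, adjusted p = 0.0471). A comparison within each array avoids the scaling. The class I mean was taken over the 25 tested probes. These include TC66789, which passed the filter through its epidermal arrays alone. The class I mean minus the mean of the 3 light chain probes was −3.13 ± 0.03 in corneal cells and −2.61 ± 0.01 in epidermal cells (SD, n = 3 each). The shift was −0.53, without overlap. The same comparison of PSMB9 with class I gave −2.04 ± 0.03 in corneal cells and −1.26 ± 0.05 in epidermal cells, a shift of −0.78 beyond that of the mean class I probe.

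Class II chains gave few readings. Of the 8 probes, 2 were well above background on all 6 arrays and 2 on none. The DQA1 probe at base 577 read −2.44, −2.56 and −2.66 in corneal cells against −2.92, −2.90 and −2.91 in epidermal cells. The corneal arrays all read higher, which was the case for 30.1% of all probes tested, and the change was 0.35 ± 0.06 (adjusted p = 0.00332). The DQA2 probe M93431, which differs from it at 4 bases, read −2.55, −2.63 and −2.56 in corneal cells against −2.86, −2.91 and −2.90 in epidermal cells, and changed by 0.31 ± 0.03 (adjusted p = 0.000716). Both changes were smaller without scaling and did not pass, at 0.18 (adjusted p = 0.105) for DQA1 and 0.14 (adjusted p = 0.173) for DQA2. A different DQA1 probe, at base 1088 of the same entry, was not well above background on any array, and a different DQA2 probe, M93433, gave −0.24 ± 0.24 (adjusted p = 0.418) with overlapping groups.

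The DM beta chain belongs to the editor that exchanges CD74 fragments for peptides on class II. Its probe JF806323 read −4.11, −4.30 and −4.18 in corneal cells against −5.20, −5.14 and −5.53 in epidermal cells. It rose by 1.09 ± 0.12 (adjusted p = 0.000566), a 2.14-fold higher intensity, and by 0.36 with normexp correction.

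The DR and DQ beta chains, which carry most of the peptide-contacting polymorphism, were dim. The DRB1 allele probe DQ659127 read −7.08, −7.43 and −7.82 in corneal cells, where no array was well above background, against −5.99, −5.95 and −6.43 in epidermal cells, where all 3 were. In the main processing its signal was lower in corneal cells by at least 1.14-fold. That bound carries no estimate of error and was not met under every alternative. Since the probe entered the test through the epidermal arrays alone, its call carries no weight and its fitted change is not given. The DRB3 probe L04790 read −5.37, −5.78 and −5.58 in corneal cells against −5.17, −4.60 and −5.19 in epidermal cells. Its change of −0.59 ± 0.19 (adjusted p = 0.0425) passed narrowly, and the call was lost under 11 of the alternatives, 5 of which left out a single array. The DQB1 probe L08792 read −8.25, −8.24 and −6.76 in corneal cells against −6.77, −5.91 and −6.82 in epidermal cells, with overlapping groups. Like DQ659127, it was above background on 0 corneal arrays and entered the test through its epidermal arrays alone, so only its values are given.

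The classical DRA chain, the DRB1 probe MHCII-DRB1 and the DRB1 allele AY884017 were not well above background on any array. DYA, a class II alpha chain of ruminants, was above it on 0 corneal arrays and 1 epidermal array. CD74, the invariant chain that escorts new class II molecules, read −4.74, −4.83 and −4.67 in corneal cells and −4.58, −4.73 and −4.73 in epidermal cells. The groups overlapped, with a change of −0.07 ± 0.06 and a 95% interval from −0.23 to 0.09 (adjusted p = 0.384).

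Set side by side within each array, the mean of the 5 tested class II probes minus the mean of the 25 tested class I probes was −7.20, −7.36 and −7.13 in corneal cells and −7.40, −7.09 and −7.54 in epidermal cells. The groups overlapped, with a shift of 0.11. DQ659127 and L08792 among these class II probes, and TC66789 among the class I probes, passed the filter through their epidermal arrays alone. The filter thus helped to set this shift, and no conclusion is drawn from it. With probes above background on all 6 arrays alone, which leaves DQA1 and DM beta for class II, the shift was 1.17. The comparison of the 2 classes therefore depended on whether the dim class II probes were included.

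HM13, which cleaves signal peptides in the endoplasmic reticulum membrane and in human cells supplies peptides for HLA-E, was higher in corneal cells. It read 1.40, 1.32 and 1.34 in corneal cells against 0.65, 0.77 and 0.67 in epidermal cells, a rise of 0.66 ± 0.04 (adjusted p = 8.95e-05).

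Genes around the pathway moved in different directions. Of 7 tested genes that serve class II loading in endosomes, 2 were higher and 3 lower, beside 26.4% and 33.4% of all probes tested. Cathepsin B (CTSB) did not pass on its brightest probe (0.05, adjusted p = 0.383). Other CTSB probes gave 0.09 (adjusted p = 0.228), 0.16 (adjusted p = 0.0396) and 0.19 (adjusted p = 0.0480). Cathepsin D (CTSD), an endosomal aspartic protease, rose by 2.30 ± 0.06 (adjusted p = 2.49e-06), a 4.92-fold higher intensity. Cathepsin S (CTSS), the protease that trims CD74 in antigen presenting cells, changed by −1.76 ± 0.08 (adjusted p = 2.37e-05) on its brightest probe, or by −0.81 with normexp correction, and by −0.29 (adjusted p = 0.733) on another. Also lower were legumain (LGMN), at −0.72 ± 0.04, and the lysosomal thiol reductase IFI30, at −0.26 ± 0.03. RAB7A, a GTPase of late endosomes, passed at 0.09 ± 0.03 (adjusted p = 0.0423) but turned to −0.08 without scaling, and its call was lost under 12 of the alternatives. The MHC-like molecules CD1D, which presents lipids, and FCGRT, the neonatal Fc receptor that also pairs with beta-2-microglobulin, were both lower, at −0.83 ± 0.06 (adjusted p = 9.03e-05) and −0.53 ± 0.03 (adjusted p = 5.57e-05).

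Regulators and interferon gamma genes gave small changes. IRF2, an interferon regulatory factor on the list of MHC transcription, passed at 0.15 ± 0.04 (adjusted p = 0.0153) but turned to −0.01 without scaling and lost its call without corneal replicate 3 or epidermal replicate 3 (adjusted p = 0.0529 for both). IRF1, an interferon-inducible activator of class I genes, gave −0.18 ± 0.06 (adjusted p = 0.0546), and RFX5, a class II promoter factor, was not well above background on any corneal array and did not pass. The list of the interferon gamma pathway also holds PSME2 and IRF1. IFNG itself gave −0.17 ± 0.16 (adjusted p = 0.408) on a dim probe, with means of −5.92 in corneal and −5.76 in epidermal cells. Another IFNG probe was above background on 0 arrays. ICAM1, an adhesion molecule, gave −0.11 ± 0.04 (adjusted p = 0.0558), and GBP5 was above background on 0 arrays.

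Type I interferon genes were mostly higher. The list held 21 names, 6 of which were named on the array and tested. Of these, 5 were higher and 1 lower. MX2 read −0.59, −0.68 and −0.63 in corneal cells against −2.36, −2.22 and −2.29 in epidermal cells. MX1 read 4.14, 4.13 and 4.15 in corneal cells against 2.85, 2.90 and 2.86 in epidermal cells. ISG15, a ubiquitin-like modifier, read 3.52, 3.53 and 3.50 in corneal cells against 2.41, 2.34 and 2.36 in epidermal cells. These antiviral genes rose by 1.66 ± 0.05, 1.27 ± 0.03 and 1.14 ± 0.03, opposite in direction to PSMB9 and the class I probes on the same arrays. The receptor subunit IFNAR1 was higher, at 0.25 ± 0.04 (adjusted p = 0.00394), but did not pass without scaling (0.08, adjusted p = 0.361). The receptor subunit IFNAR2 was the single lower gene, at −0.12 ± 0.03 (adjusted p = 0.0158). IFNAR2 lost its call with median centring (adjusted p = 0.0768) and without corneal replicate 2 (0.0505) or corneal replicate 3 (0.0560).

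Among markers of antigen presenting and other leukocytes, several of which carry class II, some were lower in corneal cells, as class I was. Of 29 markers, 15 were named on the array and 7 were above background on all 6 arrays. Of these 7, 4 were lower in corneal cells, 0 were higher and 3 did not pass. CD14, a lipopolysaccharide co-receptor of monocytes that other cells also express, read 3.85, 3.82 and 3.83 in corneal cells against 4.53, 4.52 and 4.46 in epidermal cells (−0.67 ± 0.03; adjusted p = 2.29e-05). That was its brightest probe, and other CD14 probes changed less, by −0.31 (adjusted p = 0.000927) and −0.34 (adjusted p = 0.000505). The Fc receptor FCGR2B changed by −2.02 ± 0.12 (−0.57 with normexp correction), the costimulatory receptor CD40 by −0.84 ± 0.07 (−0.36 with normexp correction) and the actin bundler LCP1 by −0.29 ± 0.07, the last losing its call without corneal replicate 2 (adjusted p = 0.0517) and giving 0.11 (adjusted p = 0.339) on another probe. FCGR1A and CD86 stayed below the background criterion on all corneal arrays and passed the filter through their epidermal arrays alone. In the main processing their bounds were at least 1.60-fold and 2.96-fold lower. Over the alternatives their fitted changes were as small as −0.23 and −0.30 on the log2 scale, short of these bounds. TYROBP, a signalling adaptor of myeloid cells, gave −0.17 ± 0.07 (adjusted p = 0.0972). The linear signals of the 15 genes were also summed, so that each probe counts by its own brightness, and 3 were above background on no array. The sum ran from 15.1 to 15.5 in corneal cells and from 23.4 to 24.3 in epidermal cells, in units of the array's 75th percentile. CD14 was by far the brightest of the 15, so the sum mostly repeats its reading and adds no separate result about the list. The myeloid integrin ITGAM and the T cell markers CD4 and CD8A were above background on 0 arrays. The part of such cells in the class I and class II differences was not tested.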

How the data were processed

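RNA of 6 samples was labelled with Cy3 and hybridised to sheep expression arrays, per the labels' protocols, and per the submitters' processing notes the arrays were read with Agilent Feature Extraction 10.7. The deposited values are linear spot intensities, with background subtracted and the array detrended by the scanner software, per the file headers. A second deposited table, of log2 values, served as an alternative. Its columns each have a median of 7.23 and track the log2 processed signal of their own array, so its scale is known and genes were not centred, while its normalization is stated nowhere in the sources at hand.

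Control and outlier spots were left out, the log2 processed signal was set relative to each array's 75th percentile, and spots of a probe were averaged. Probes well above background on at least 3 of 6 arrays (11740) were tested with limma (version 3.58.1, under R 4.3.3), checked on simulated data, with Benjamini-Hochberg adjustment. Probes rather than genes were tested, because MHC copies are near-identical. A gene of a list was represented by its brightest probe. Names came from the arrays' annotation and the RefSeq table of assembly ARS-UI_Ramb_v3.0, which gave 765 probes a name by accession, 528 by symbol, 18 by synonym and 35 by description. The other 13662 probes were given no gene symbol, so the lists were followed through the named probes alone. The members, lists and tests were chosen with earlier results of these data known. Named were all tested members, up to 3 called genes of a list in each direction and the called leukocyte markers with the 2 of highest signal, and some further list genes after their values were seen. Alternatives were background correction, scaling, the filter, 1 probe per gene, left-out arrays, a replicate block, a variance trend and the second table. The number of arrays limits the precision. A gene of the transcription and interferon gamma lists is not reported here, and these lists are given without counts.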

Additional observations from a re-analysis of the deposited data

How the results depend on the processing

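Over 17 alternatives, the 38 tested member probes gave 637 values, of which 611 kept direction and side of the threshold, 21 lost the call, 3 gained it and 2 reversed. Both reversals were those of the B2M probe at base 324 (0.070 with either normexp setting). Class I probes called lower numbered 19 to 22, and the class I median ran from −0.69 to −0.49. The 22 of the main fit included TC66789, which passed the filter through its epidermal arrays alone. Class II probes called lower were 1, in place of 2, with both normexp settings, quantile normalization, the authors' deposited table, no filter and the replicate block, 0 with the filter on all 6 arrays, 3 without scaling, and 1 to 2 with a single array left out; one of the 2 is DQ659127, which passed the filter through epidermal arrays alone. Class II probes called higher were 3, in place of 2, with no filter. Without scaling, which moved the median of all probes to −0.22, 1532 probes were higher in place of 3101 and 22.5% of calls were higher in place of 44.1%. Without scaling, 1 class II probe and 5 list genes were higher, in place of 2 and 10. The shift of class II against class I, 0.11, was 0.48 with both normexp settings, 1.17 with the filter on all 6 arrays and 0.02 to 0.24 with an array left out, and that of class I against beta-2-microglobulin was −0.43 with 1 probe per gene. Among 50 other named probes, 3 of 844 values reversed: RAB7A (−0.076) and IRF2 (−0.014) without scaling, and DCN, which ran from −0.18 to 0.20 with an array left out and was called at −0.18 without epidermal replicate 1; 45 lost the call and 16 gained it. With normexp correction FCGR2B, CD40 and CTSS kept their calls at smaller changes (−0.57, −0.36 and −0.81). The cause of these changes was not tested.

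Replicate numbers are shared between the groups, and nothing says that they pair samples. Deviations of same-numbered samples correlated at 0.02, −0.03 and 0.04. Only for replicate 3 was the correlation highest with its own number. With so few samples, such correlations cannot exclude a shared origin of same-numbered samples. The replicate block gave 2753 higher and 3515 lower probes and 22 lower class I probes, TC66789 among them. Of the members it ended the call of L04790 (adjusted p = 0.103). Among other named genes it ended the calls of PSME2 (adjusted p = 0.0556), RAB7A (0.122), IRF2 (0.0565), IFNAR2 (0.0533) and COL1A1 (0.103).

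Signal over background limits the class II chains: 3 of 8 probes were not tested, and DQ659127 and L08792 passed the filter on epidermal arrays alone. Probe sequences were not matched to transcripts, so which heavy chain genes each probe reads is unknown here.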
